A study of Drosophila melanogaster with 5 samples.

Results

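The hairpins mir-283, mir-304 and mir-12 lie together in one intron of Gmap, a protein-coding gene of the fly's X chromosome. They were taken from the count table by name, which gave 6 mature arms of 3 hairpins, out of 479 arms of 259 hairpins in all. Read counts came from small RNAs of 18 to 29 nt in 3 libraries of dissected intestine and 2 libraries of the remaining carcass. All were from adult wild-type Drosophila melanogaster males of the strain w1118, 2 to 3 days old and on standard food. The carcass is everything left after the intestine is taken out, so it mixes testis, fat body, muscle, epidermis and nervous system. The labels do not say whether libraries of one tissue came from separate animals, so the spread behind each p-value is that of these 5 libraries and may be technical.

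A microRNA is cut from a folded stretch of a longer transcript. Drosha releases the hairpin in the nucleus, Dicer-1 trims it to a duplex in the cytoplasm, and one strand of the duplex, from the 5p or the 3p side of the hairpin, is kept in an Argonaute protein, where it represses messenger RNAs that pair with its seed. Hairpins in the same intron can be carried by the same primary transcript, and each still has to be processed and stabilised separately. Gmap encodes a golgin, a coiled-coil protein of the Golgi apparatus related to human GMAP-210. In Drosophila wing discs miR-12 and miR-283 are known to lower components of the Hedgehog pathway when overexpressed.

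In the BDGP6.54 annotation Gmap (FBgn0027287) spans chromosome X, 15486922 to 15511223, on the plus strand. The hairpins follow one another on the same strand, mir-283 (FBgn0262426) at 15507956 to 15508055, mir-304 (FBgn0262409) at 15508959 to 15509046 and mir-12 (FBgn0262395) at 15509473 to 15509546. In each of the 4 annotated Gmap transcripts they fall in the same intron, 15507594 to 15509717, between exons 5 and 6 of the transcripts with 7 exons, and between exons 4 and 5 of those with 6. The intron is 2124 bases long and the hairpins span 1591 of them, with 903 bases between mir-283 and mir-304 and 426 between mir-304 and mir-12. The mature arms are miR-283-5p (15507976 to 15507997), miR-283-3p (15508023 to 15508043), miR-304-5p (15508970 to 15508992), miR-304-3p (15509016 to 15509037), miR-12-5p (15509479 to 15509501) and miR-12-3p (15509521 to 15509542), between 21 and 23 nt long. The map of the intron shows this order.

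**Figure D1:**
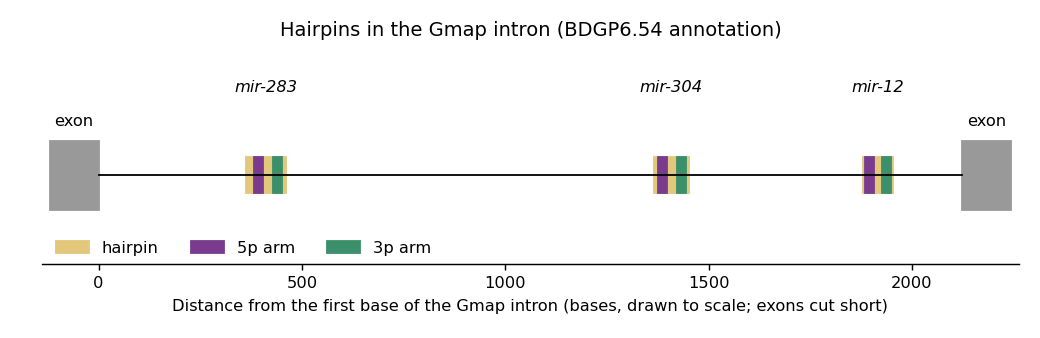
Positions of the 3 hairpins and their mature arms in the Gmap intron, as the distance in bases from the first base of the intron, drawn to scale, with the flanking exons cut short. mir-283 is separated from mir-304 by 903 bases, and mir-304 from mir-12 by 426.

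The intestine libraries held 329424 to 547937 microRNA reads, against 1654625 and 3038873 in the carcass libraries. The labelled tissues were set apart by marker microRNAs. miR-958-3p, the most abundant microRNA of these intestines, measured 188607 to 198119 CPM (reads scaled to the total of each library) in the intestine, against 745 to 877 CPM in the carcass. The neuronal miR-124-3p measured 43.4 to 63.7 CPM in the intestine, against 5237 to 6608 CPM in the carcass. The 28 arms of the testis clusters mir-959 to mir-964 and mir-972 to mir-979 summed to 24.4 to 36.4 CPM in the intestine and 2265 to 2479 in the carcass, with 12 of the 28 at 0 in all intestine libraries. The muscle arms miR-1-3p and miR-133-3p summed to 27764 to 41585 CPM in the intestine and 142897 to 152868 in the carcass. The arms miR-210-3p and miR-263b-5p, known from the eye and sense organs, summed to 100 to 170 CPM in the intestine, against 13224 to 20772 CPM in the carcass. These lists move with every comparison of the tissues made here, and their part in the results was not tested.

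The study set the intestine against the rest of the body. With TMM scaling, a trimmed mean that corrects CPM for differences in make-up between libraries, only mir-283 of the 3 hairpins differed by the test. Both of its arms were higher in the intestine, miR-283-5p by 9.53-fold and miR-283-3p by 5.56-fold, whereas no difference was called for either arm of mir-304 or mir-12. The reads of the 3 hairpins together came to 21520, 25394 and 24103 TMM-scaled CPM in the intestine libraries and to 17273 and 14639 in the carcass libraries, which do not overlap. As a share of all microRNA reads, without TMM factors, they made up 1.87, 2.24 and 2.03% in the intestine libraries and 2.20 and 1.77% in the carcass libraries, which overlap. The total of the 3 was not tested. In bulk tissue, more cells of a type and more microRNA in each cell cannot be told apart.

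miR-283-5p, the abundant arm of its hairpin, had 6420, 6439 and 6917 TMM-scaled CPM in the intestine libraries, against 683 and 701 in the carcass libraries. The tissues lay far apart and the libraries of each tissue close together, with means of 6592 ± 282 CPM over the 3 intestine libraries and 692 ± 12.5 CPM over the 2 carcass libraries (± SD, here and below). The log2 fold change was 3.25 (SE 0.26, 95% interval 2.73 to 3.77, edgeR quasi-likelihood test with Benjamini-Hochberg adjustment over 222 arms, adjusted p = 9.47e-14). miR-283-5p was the 28th, 28th and 29th most abundant of the 479 arms in the intestine libraries, and ranked 74 and 79 in the carcass libraries. Its fold change was the 9th highest of the 222 arms.

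miR-283-3p, the rarer arm of the same hairpin, had 132, 120 and 123 CPM in the intestine libraries, against 18.5 and 25.8 in the carcass libraries. The tissues again did not overlap. The log2 fold change came to 2.47 (SE 0.29, 95% interval 1.88 to 3.06, edgeR adjusted p = 1.62e-09), resting on 136 intestine and 134 carcass reads. With libraries thinned to the shallowest total the log2 fold change was 1.74 and still called (edgeR adjusted p = 6.17e-05).

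miR-304-5p had 3259, 6206 and 5574 TMM-scaled CPM in the intestine libraries and 5997 and 5175 in the carcass libraries. The tissues overlapped, and the first intestine library was the lowest of all 5. The means were 5013 ± 1551 CPM over the 3 intestine libraries and 5586 ± 581 CPM over the 2 carcass libraries. The log2 fold change was -0.16 (95% interval -0.65 to 0.34, edgeR adjusted p = 0.544). With RLE factors, the scaling of DESeq2, it was -0.52 (edgeR adjusted p = 0.0208). With library totals it was -0.68 (edgeR adjusted p = 0.00247), and without a filter on low counts -0.56 (0.0315). miR-304-5p was called lower under each of those settings. DESeq2 itself gave -0.52 and no call (DESeq2 adjusted p = 0.0858).

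miR-304-3p, the rare arm, had 35.7, 30.7 and 46.9 CPM in the intestine libraries, against 39.8 and 50.5 in the carcass libraries, with the tissues overlapping. Its log2 fold change was -0.29 (95% interval -0.99 to 0.42, edgeR adjusted p = 0.441). With library totals it was -0.80 and called lower (edgeR adjusted p = 0.0345). The intestine values rest on 17, 10 and 13 reads.

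miR-12-5p was the most abundant of the 6 arms in every library, with 11647, 12580 and 11423 TMM-scaled CPM in the intestine libraries, against 10519 and 8670 in those of the carcass. All intestine libraries lay above both carcass libraries on this scale, by less than the test requires. The means were 11883 ± 614 CPM over the 3 intestine libraries and 9595 ± 1308 CPM over the 2 carcass libraries. Without TMM factors, at 10134, 11117 and 9605 CPM in the intestine against 13422 and 10510 CPM in the carcass, the tissues overlapped. The log2 fold change was 0.31 (95% interval -0.12 to 0.74, edgeR adjusted p = 0.170). Its sign turned with RLE factors (-0.063), library totals (-0.22), DESeq2 (-0.063) and no filter (-0.091), none of them called. miR-12-3p was the rarest arm, with 25.2, 18.4 and 18.1 CPM in the intestine libraries, against 16.1 and 17.1 in the carcass libraries. Those intestine values rest on 12, 6 and 5 reads. Its log2 fold change was 0.34 (95% interval -0.68 to 1.37, edgeR adjusted p = 0.525), and its sign turned under those settings and without the first intestine library.

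**Figure D2:**
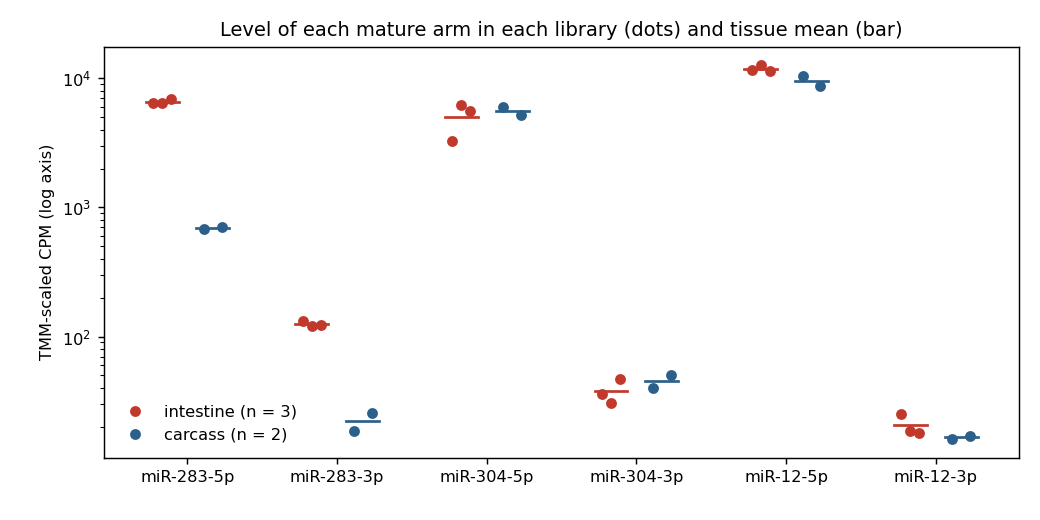
TMM-scaled CPM on a log axis for the 6 arms in each library, with intestine in red (n = 3) to the left of carcass in blue (n = 2) and a bar at each tissue mean. The tissues stand clearly apart for both arms of mir-283, at 6420 to 6917 CPM in the intestine and 683 to 701 in the carcass for miR-283-5p, and lie close together for the other 4 arms.

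Across all arms, calls were common. All 6 member arms passed the low-count filter, and 2 of them were called, both higher in the intestine. Of the 222 arms tested, 82.9% were called, 34.7% higher and 48.2% lower in the intestine. That is 77 arms higher and 107 lower, against 50 higher and 126 lower with library totals. Values of the tissues did not overlap for 4 of the 6 member arms, both of mir-283 and both of mir-12, and for 87.8% of all arms tested. The median log2 fold change was 0.33 over the 6 member arms and -0.50 over all arms tested. Some arms without intestine reads, such as miR-210-5p (mean of 0 CPM in the intestine, 224 in the carcass), passed the filter through the carcass libraries alone. They count among the arms called lower and pull the median of all arms down. With RLE factors the median of all arms was shifted by -0.36 and with library totals by -0.52, so the sign of the fold changes of mir-12 and the call of mir-304 depend on the scaling.

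The hairpins can be set against each other inside each library, which needs no scaling between libraries. Of the reads of the 3 hairpins, mir-283 took 30.4, 25.8 and 29.2% in the intestine libraries and 4.06 and 4.96% in the carcass libraries. mir-304 took 15.3, 24.6 and 23.3% in the intestine libraries and 34.9 and 35.7% in the carcass libraries. mir-12 took 54.2, 49.6 and 47.5% in the intestine libraries and 61.0 and 59.3% in the carcass libraries. No share overlapped between the tissues, and mir-12 held the largest share in every library. By a different measure, TMM-scaled values of single arms, the tissues did not overlap for 87.8% of all arms tested. Shares in other clusters were not counted, so these shares have no background of their own kind. Shares add up to a fixed whole, so the lower shares of mir-304 and mir-12 in the intestine go with the higher share of mir-283.

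The counting error of these shares was small. The widest 95% Wilson interval, for mir-12 in the third intestine library, ran from 46.3 to 48.7%. The interval for mir-283 in the first carcass library ran from 3.86 to 4.27%. Reads carry no molecular identifiers, so all such intervals cover counting error only.

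**Figure D3:**
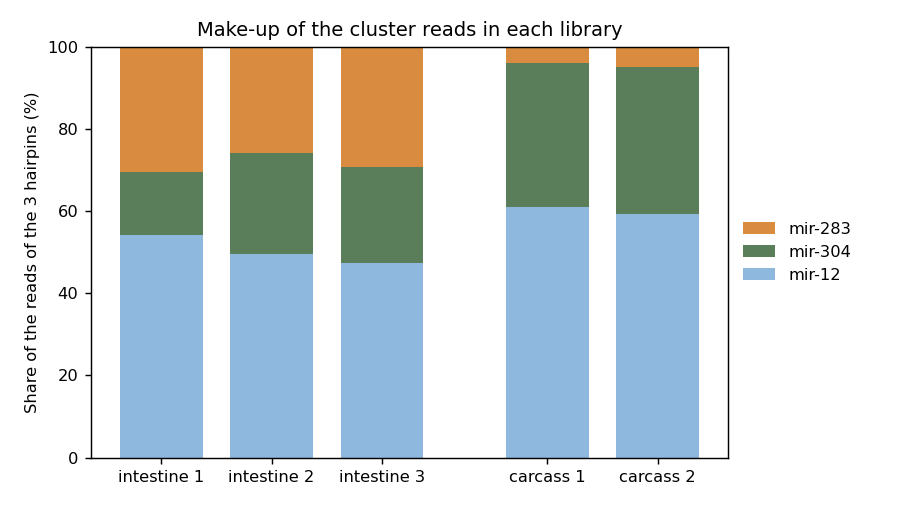
Share in percent of the summed reads of mir-283, mir-304 and mir-12 that each hairpin holds, as 1 stacked bar for each library, intestine to the left of carcass. mir-283 makes up 25.8 to 30.4% in the intestine and 4.06 to 4.96% in the carcass.

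The order of the hairpins also differed between the tissues. In the intestine mir-283 had 1.99, 1.05 and 1.25 reads per read of mir-304. In the carcass this ratio was 0.116 and 0.139, so that mir-304 had 8.61 and 7.19 times the reads of mir-283. In the second intestine library the levels of mir-283 and mir-304 nearly met, and the means of mir-283 (6717 ± 280 CPM) and mir-304 (5051 ± 1551 CPM) over the 3 intestine libraries lay about 1 SD of mir-304 apart. Ligation and amplification favour some sequences over others and were not corrected for, so the order of different microRNAs within a library is less certain than the change of a ratio between the tissues.

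Each pair of hairpins was tested for unequal fold changes, with both arms summed and the library as a block. The fold change of mir-283 was higher than that of mir-304 by 3.44 on the log2 scale (SE 0.23, 95% interval 2.99 to 3.89, edgeR adjusted p = 7.51e-39), a 10.8-fold shift of their ratio. It was higher than that of mir-12 by 2.92 (SE 0.24, 95% interval 2.45 to 3.38, edgeR adjusted p = 2.51e-28), a 7.56-fold shift. In the intestine mir-283 had 0.561, 0.521 and 0.615 reads per read of mir-12, against 0.0666 and 0.0836 in the carcass. The fit took the same spread for all pairs, which share hairpins and libraries, so these p-values are too small. Standard errors and intervals of pairs, here and below, may likewise be too narrow. limma on the log2 ratio of each library gave the same differences, with an adjusted p = 0.0128 for each. Leaving out any 1 library gave differences of 3.17 to 3.63 for mir-283 over mir-304 and 2.75 to 3.08 for mir-283 over mir-12, all called.

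The fold changes of mir-304 and mir-12 were not called as different from each other. mir-304 had 0.282, 0.495 and 0.491 reads per read of mir-12 in the intestine libraries and 0.573 and 0.601 in the carcass libraries. The first intestine library had the lowest of these ratios. The fold changes of mir-304 and mir-12 differed by -0.52 on the log2 scale (SE 0.23, 95% interval -0.98 to -0.060). This did not pass after adjustment over 132 pairs (edgeR adjusted p = 0.235). limma gave -0.52 as well, not called (limma adjusted p = 0.508). Without the first intestine library the difference was -0.25 and was not called either.

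Pairs of hairpins were tested in the same way in all clusters of the annotation. Of 132 pairs in 18 clusters, 11 were called, which is 8.33%, and 2 of the 3 member pairs were among them. The count was 5 without the first carcass library and 6 without the second, with the same 2 member pairs called in each. Most pairs had few intestine reads. Among the 30 pairs with at least 10 intestine reads of both hairpins, 11 were called. In this group, outside the members, 9 of 27 pairs were called, and 2 of the 27 differed by more than mir-283 and mir-304. Those were mir-13a with mir-13b-1 (5.99) and mir-2c with mir-13a (4.37), named after their values were seen, and both rest on 21 intestine reads of mir-13a. Of all 129 pairs outside the members, whatever their reads, 18 differed by more than mir-283 and mir-304 and 23 by more than mir-283 and mir-12. All but the 2 named had fewer than 10 intestine reads of a hairpin, and none of those was called. Some other pairs are near-identical copies that can share reads.

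A pair of short clusters served for comparison. The fold change of mir-275 differed from that of mir-305 by -0.16 (95% interval -0.63 to 0.32, edgeR adjusted p = 0.947). That of mir-11, in an intron of E2f1, differed from that of mir-998 in the same intron by 0.41 (95% interval -0.034 to 0.86, edgeR adjusted p = 0.577). Neither of these pairs was called, but 9 of the 27 pairs outside the members with at least 10 intestine reads of both hairpins were. Whether the differences of these short clusters differ from those of mir-283 was not tested.

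**Figure D4:**
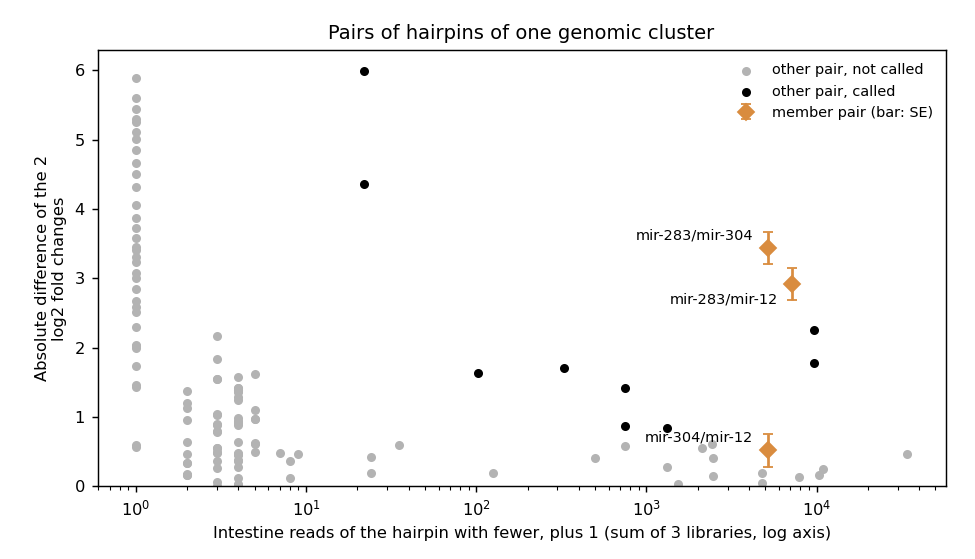
Absolute difference of the log2 fold changes of the hairpins of each pair, against the intestine reads of the hairpin with fewer reads, plus 1, on a log axis, for 132 pairs of the same genomic cluster. The pairs of mir-283 with mir-304 (3.44) and with mir-12 (2.92) are the largest differences among pairs whose hairpins both have more than 21 intestine reads.

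All 3 hairpins gave mostly 5p reads, in both tissues. The 3p arm held 2.02, 1.83 and 1.74% of mir-283 reads in the intestine libraries and 2.63 and 3.55% in the carcass libraries. It held 1.08, 0.493 and 0.835% of mir-304 reads in the intestine libraries and 0.659 and 0.966% in the carcass libraries. For mir-12 it held 0.216, 0.146 and 0.158% in the intestine libraries and 0.153 and 0.197% in the carcass libraries. The order of the hairpins was thus the same in every library, with mir-283 the least and mir-12 the most one-sided.

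For mir-283 the test called no difference of the arm ratio between the tissues. There were 48.6, 53.7 and 56.4 reads of miR-283-5p per read of miR-283-3p in the intestine libraries and 37.0 and 27.2 in the carcass libraries. The ratio averaged 52.9 ± 3.95 over the 3 intestine libraries and 32.1 ± 6.93 over the 2 carcass libraries. Its log2 difference between the tissues was 0.76 (SE 0.33, 95% interval 0.11 to 1.41), which did not pass after adjustment over 85 hairpins (edgeR adjusted p = 0.105). This fit took the same spread for all hairpins, so its intervals may be too narrow. limma with a pseudocount of 0.5 gave 0.73 (limma adjusted p = 0.180). The carcass libraries also differed from each other, and the difference was 0.51 without the second of them and 0.95 without the first, neither called. Of 12 alternatives it was called in 1, libraries thinned to the shallowest total (1.25, edgeR adjusted p = 0.0349), a setting with fewer carcass reads of miR-283-3p.

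The arm ratios of the other hairpins overlapped between the tissues. miR-304-5p had 91.4, 202 and 119 reads per read of miR-304-3p in the intestine libraries and 151 and 102 in the carcass libraries, a log2 difference of 0.048 (95% interval -0.63 to 0.72, edgeR adjusted p = 0.962). miR-12-5p had 463, 682 and 633 reads per read of miR-12-3p in the intestine libraries and 653 and 507 in the carcass libraries, a log2 difference of -0.016 (95% interval -0.89 to 0.86, edgeR adjusted p = 0.995). With as few as 5 reads of miR-12-3p in a library, shifts within these intervals could not be detected. None of the 3 member hairpins was called, against 18.8% of the 85 hairpins tested.

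**Figure D5:**
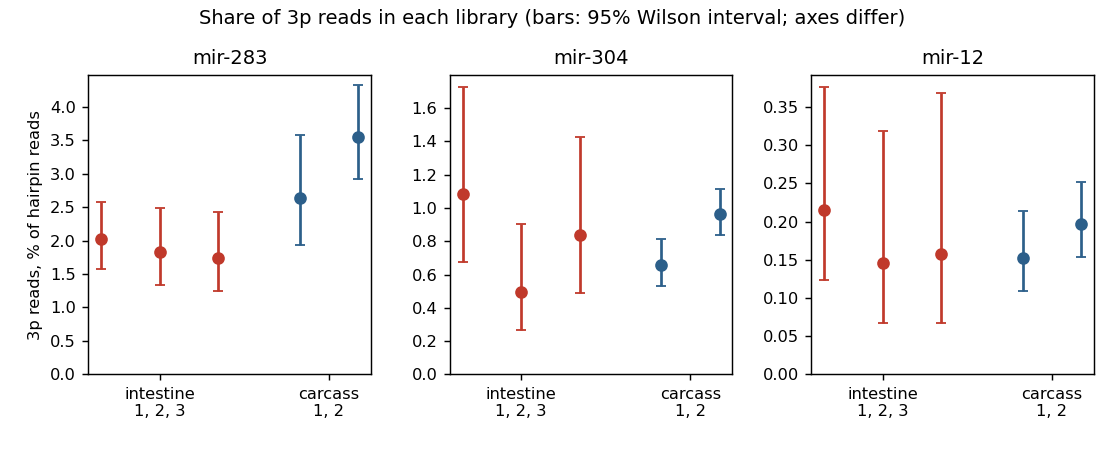
Share of 3p reads among the reads of each hairpin in each library, in percent, with 95% Wilson intervals for counting error, intestine in red to the left of carcass in blue, and a separate axis for each hairpin. For mir-283 the share was 2.63 and 3.55% in the carcass libraries and 1.74 to 2.02% in the intestine libraries, a difference not called by the test. For mir-304 and mir-12 the tissues overlap.

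The members were also set beside the other microRNAs of introns. In the annotation 175 arms of the table belong to hairpins in an intron of a protein-coding gene on the same strand. Without the 6 members, 70 of these arms were tested. Of those 34 were higher, 24 were lower and 12 were not called, with a median log2 fold change of 0.42. Of all 222 arms tested 77 were higher, 107 were lower and 38 were not called, with a median of -0.50. The arms without intestine reads count among these.

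The arms whose log2 CPM over the 5 libraries was most like that of a member, by Euclidean distance after centring, were the following. For miR-283-5p they were miR-375-3p (distance 0.43), miR-1006-5p (0.49) and miR-10-3p (0.50). miR-375-3p measured 36486 ± 1579 CPM over the 3 intestine libraries and 4891 ± 443 CPM over the 2 carcass libraries, a log2 fold change of 2.90. miR-1006-5p comes from an intron of VhaSFD, and miR-10-3p from a hairpin of the Hox region on chromosome 3R. For miR-304-5p they were miR-9a-5p (0.34), let-7-5p (0.35) and miR-1003-3p (0.38). For miR-12-5p they were miR-279-3p (0.23), miR-34-3p (0.32) and miR-31a-5p (0.42). None of these 3 lists held another arm of the Gmap intron, and the rarer 3p arms of the members were not ranked in this way. The 5 points of each profile share their libraries and tissues, so the distances mostly rank arms by a like tissue difference.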

How the data were processed

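The submitters' processing notes name cutadapt 1.9.1, Bowtie2 2.3.2, featureCounts and Subread 2.0.0. Not given in the sources used here were the strand setting, the genome build and its annotation, and how reads with several matches were counted. The authors deposited raw read counts per mature arm, 1 column for each library. All 479 rows were matched to BDGP6.54 (473 by name, 6 by synonym) and arms were assigned by position in the hairpin. Sequences are not shown.

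The tissue test was run in R 4.3.3 with edgeR 4.0.16 (quasi-likelihood, TMM, filterByExpr with a minimum count of 10 and a minimum total of 15, Benjamini-Hochberg threshold 0.05). The filter left 222 arms with at least 99.9% of the reads of each library. Arm ratios and pairs of hairpins on one strand within 10000 bases were fitted with a column for each library and arm or hairpin, and the library as a block. Standard errors are the absolute coefficient over the root of F. The edgeR fits of tissues, arm ratios and pairs were also run on simulated counts, with outcomes not given here. For arm ratios and pairs these counts had the same spread in all rows, so they cannot show whether that assumption holds. Alternatives used limma 3.58.1 and DESeq2 1.42.0, other scalings and filters, thinning, a replicate block and leaving out each library. Named arms were the members, the 3 arms nearest to each abundant member, and the pairs mir-275 with mir-305 and mir-11 with mir-998. The members, lists and tests were chosen with earlier results of these data known.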

Additional observations from a re-analysis of the deposited data

How the results depend on the processing

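Both arms of mir-283 were called higher under all 15 alternatives to the tissue test, between 2.73 and 3.25 for miR-283-5p and between 1.74 and 2.74 for miR-283-3p (log2 fold change). The differences of mir-283 from mir-304 and from mir-12 were called under all 12 alternatives, and that of mir-304 from mir-12 under none. The tissue difference of miR-304-5p was called with RLE factors (-0.52), library totals (-0.68) and no filter (-0.56), and that of miR-304-3p with library totals (-0.80). The sign of miR-12-5p turned with RLE factors (-0.063), library totals (-0.22), DESeq2 (-0.063) and no filter (-0.091). That of miR-12-3p turned with RLE factors (-0.014), library totals (-0.17), DESeq2 (-0.029), no filter (-0.059) and, as the lowest of -0.097 to 0.38 over left-out libraries, without the first intestine library. The rises called over all arms numbered 50 with library totals, against 77.

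The arm ratio of mir-283 was called in libraries thinned to the shallowest total (1.25) and under no other alternative. That of mir-304 turned sign when thinned (-0.12) and with limma at a pseudocount of 2 (-0.12), and ran from -0.25 to 0.33 over left-out libraries. That of mir-12 ran from -0.22 to 0.21 over left-out libraries. The hairpins with a called ratio numbered 7 higher when thinned, against 12, and 1 and 11 lower with limma at a pseudocount of 0.5 and 2, against 4. The called cluster pairs numbered 7 with the replicate block and 5 to 11 over left-out libraries, against 11. For the lone library left without a carcass library, the spread of the intestine libraries is assumed. The cause of these changes was not tested.

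Replicate numbers 1 and 2 occur in both tissues but pair nothing in the labels. The deviations of same-numbered libraries from their tissue means correlated across arms with r = 0.026 and 0.021. The deviations of the 2 carcass libraries mirror each other, so these values cannot show whether same-numbered libraries share animals or a batch. With the replicate number as a block the log2 fold change of miR-283-5p stayed called, and mir-283 differed from mir-304 by 3.51 and from mir-12 by 2.86. Depth limits the 3p arms, since 3 reads equal 5.48 to 9.11 CPM in the intestine libraries and 0.987 to 1.81 in the carcass libraries.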
